A study of Homo sapiens with 3 samples.

Results

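The transcription regulators that switch the cell cycle genes on and off were followed in Cal62 cells, a human thyroid cancer cell line, after silencing of *ADAR1* (gene symbol ADAR), the enzyme that edits adenosine to inosine in double-stranded RNA. These are 10 genes of the 58333 in the table, found by their Ensembl identifiers: *E2F1*, *E2F2*, *E2F3*, *E2F7*, *E2F8*, *RB1*, *RBL1*, *MYBL2*, *FOXM1* and *LIN54*. Cal62 cells grown in medium with fetal bovine serum were transfected either with a negative control siRNA (siControl) or with 1 of 2 siRNAs against *ADAR1* (siADAR1 #1 and siADAR1 #2), and poly(A)+ RNA was sequenced from 2 libraries of each, 6 in all. The 3 groups share the cell line, the medium and the transfection reagent, and differ only in the siRNA, so the comparisons describe a single line, and the time from transfection to RNA isolation is not given in the sources used here.

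E2F proteins bind DNA together with a DP partner and control the genes that cells need to enter S phase. E2F1, E2F2 and E2F3 activate these genes and are held inactive by the pocket protein RB until cyclin-dependent kinases phosphorylate it, whereas E2F7 and E2F8 are atypical members that repress without a DP partner and without pocket proteins. LIN54 is the DNA-binding subunit of the MuvB core, which the pocket protein p107, made by *RBL1*, can join in the DREAM complex, which silences cell cycle genes in resting cells, and the same core later joins B-MYB (the product of *MYBL2*) and then FOXM1 to activate the genes of G2 and mitosis. Many of these regulator genes are themselves E2F targets.

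Levels are given as normalized counts, the reads on a gene divided by the library's size factor. The libraries held from 30114840 to 50029763 reads on genes. A gene without a read could still have up to 3 by counting error alone, which is 2.81 to 4.39 normalized counts depending on the library. *ADAR* had 10906 and 11701 normalized counts in siControl, against 1328 and 2246 with siADAR1 #1 and 1663 and 2928 with siADAR1 #2, so all 4 silenced libraries lay far below both controls, and replicate 1 was the lower with either siRNA. Its log2 fold change (log2FC) was -2.71 ± 0.30 (SE) with siADAR1 #1 (adjusted p = 0.00355) and -2.35 ± 0.30 with siADAR1 #2 (adjusted p = 0.00153). Of the thyroid markers, the transcription factor genes *PAX8* (2542 to 15868 normalized counts) and *FOXE1* (70.3 to 249) and the TSH receptor gene *TSHR* (41.5 to 107) were present, *TG* ranged from 0 to 62.4, *SLC5A5* stayed at or below 14.0, and *NKX2-1* had no read in any library. The epithelial keratin genes *KRT8* and *KRT18* reached 43025 and 61379, so the thyroid label rests on *PAX8*, *FOXE1* and *TSHR*. With siADAR1 #2, *PAX8* (limma log2FC -1.99, adjusted p = 0.00411), *FOXE1* (-1.21, adjusted p = 0.0231) and *KRT18* (-0.85, adjusted p = 0.00276) were lower than in siControl. These are 3 of the 6 markers tested, against 16.0% of all genes tested called lower by the thresholds given below. *TSHR* had 0.47 (adjusted p = 0.256) and *KRT8* had 0.18 (adjusted p = 0.377).

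All 10 regulators were expressed and passed the filter of 10 normalized counts, from *E2F2* with a minimum of 75 reads to *FOXM1* with up to 13413 reads in a library. Per kilobase of exon, siControl cells had the most *MYBL2*, with 3713 ± 229 (SD, n = 2) normalized counts per kb, then *FOXM1* with 2711 ± 99.4. These were followed by *E2F7* with 1403 ± 106, *RB1* with 1054 ± 124, *E2F1* with 1016 ± 125, *E2F3* with 887 ± 75.8 and *RBL1* with 682 ± 32.1. The lowest were *E2F8* with 414 ± 4.27, *LIN54* with 309 ± 14.3 and *E2F2* with 46.3 ± 7.68 normalized counts per kb. Neighbours in this order did not overlap between libraries, except that *E2F1* overlapped with *RB1* and with *E2F3*.

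The order was different in the silenced cells. In siADAR1 #1 the 5 most abundant regulators per kb, *E2F7* (1104), *MYBL2* (1076), *FOXM1* (1067), *RB1* (1014) and *E2F3* (1010), all overlapped with each other, and *E2F1*, at 268, stood below *LIN54*, at 342, with overlapping libraries. In siADAR1 #2, *FOXM1* (1218) and *MYBL2* (925) still led, followed by *E2F3* (599), *E2F1* (567) and *E2F7* (464), whose libraries did not overlap with each other, and by *RB1* (385) and *RBL1* (363), whose libraries did.

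A gene was called changed when its adjusted p-value, from limma over the 20247 genes tested, was below 0.05 and its log2FC was beyond 0.5 in either direction. With siADAR1 #1, 5 of the 10 regulators were called lower (*E2F1*, *E2F2*, *E2F8*, *MYBL2* and *FOXM1*), against 11.0% of all genes tested, and 0 were called higher, against 6.39%. With siADAR1 #2, 6 were called lower (*E2F3*, *E2F7*, *RB1*, *RBL1*, *MYBL2* and *FOXM1*), against 16.0%, and 0 higher, against 11.6%. The regulators called lower with both siRNAs were 2, *MYBL2* and *FOXM1*, where 3.55% of all genes tested were called lower with both. With a block for the replicate number, *E2F1* was added to both sets, which gave 7 regulators lower with siADAR1 #2, against 17.2%, and 3 lower with both siRNAs, against 4.31%. Both comparisons use the same siControl libraries. *LIN54* was not called with either siRNA. Because RNA was taken from whole cultures, less of a transcript per cell and fewer cells in the phase that makes it cannot be told apart.

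**Figure D1:**
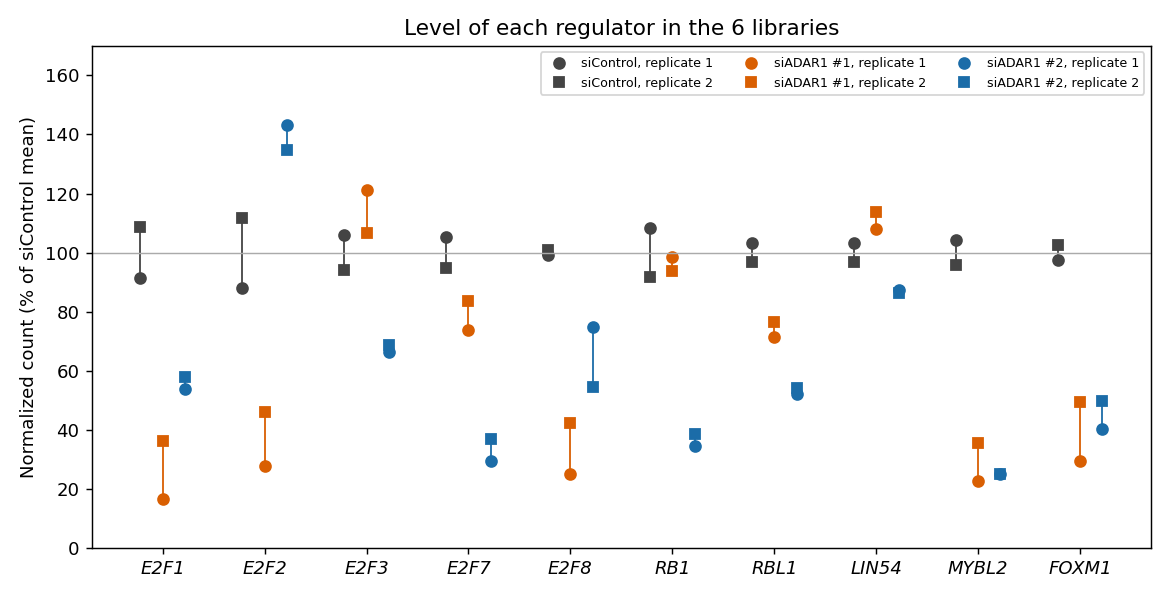
Normalized count of each regulator in each library, as a percent of the gene's siControl mean (vertical axis, starting at 0), with a circle for replicate 1, a square for replicate 2 and a line joining the libraries of a group. *MYBL2* and *FOXM1* lie far below the control level with either siRNA, *E2F1*, *E2F2* and *E2F8* are lowest with siADAR1 #1, and *E2F7*, *RB1* and *RBL1* are lowest with siADAR1 #2.

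*MYBL2* (chr20:43667019-43716495 in GRCh38) encodes B-MYB, which activates genes of G2 and mitosis together with the MuvB core. It had 10757 and 9859 normalized counts in siControl, against 2329 and 3645 with siADAR1 #1 and 2568 and 2565 with siADAR1 #2. Every silenced library was thus well below both controls, and the libraries of the siRNAs overlapped with each other. The mean fell to 29.0% of siControl with siADAR1 #1 (log2FC -1.82 ± 0.20, adjusted p = 0.00341) and to 24.9% with siADAR1 #2 (log2FC -2.00 ± 0.20, adjusted p = 6.26e-04). The difference between the siRNAs was -0.18 on the log2 scale, with a 95% confidence interval from -0.64 to 0.28 (adjusted p = 0.511). Without replicate 1 of siADAR1 #1 that difference was -0.51 with an adjusted p of 0.0332, and without replicate 2 it was 0.14 with an adjusted p of 0.477.

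*FOXM1* (chr12:2857680-2877174) encodes the forkhead factor that drives mitotic genes and is itself an E2F target. Its normalized counts were 12989 and 13681 in siControl, against 3914 and 6583 with siADAR1 #1 and 5356 and 6630 with siADAR1 #2. All 4 silenced libraries lay below both controls, and the siRNAs overlapped. *FOXM1* fell to 39.4% of siControl with siADAR1 #1 (log2FC -1.39 ± 0.23, adjusted p = 0.00878) and to 44.9% with siADAR1 #2 (log2FC -1.16 ± 0.23, adjusted p = 0.00809). Between the siRNAs the log2 difference was 0.23, with an interval from -0.30 to 0.77 (adjusted p = 0.474), and it became -0.14 without replicate 1 of siADAR1 #1 and 0.61 (adjusted p = 0.0308) without replicate 2. The call with siADAR1 #2 was lost without either siControl library (adjusted p of 0.0573 without replicate 1 and 0.0600 without replicate 2) and without replicate 1 of siADAR1 #2 (0.0595), while the log2FC stayed between -1.32 and -1.01. The call with siADAR1 #1 was lost when eBayes was run without a trend (adjusted p = 0.0533).

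Per kb, *MYBL2* and *FOXM1* together went from 6516 and 6333 in siControl to 1635 and 2652 with siADAR1 #1 and 2014 and 2272 with siADAR1 #2. The sum was 33.4% of siControl with siADAR1 #1 and 33.4% with siADAR1 #2, so the joint level of these activators was alike in the means although the libraries of siADAR1 #1 were farther apart. The profiles over the 6 libraries were compared with those of 96 other genes among the regulators and the pathway lists described further on, by the Euclidean distance between log2 values centred on each gene's mean. The genes nearest to *FOXM1* were *MCM5*, a subunit of the replicative helicase (distance 0.29), and *CDT1*, which loads it (0.36), against a median distance of 1.26, and those nearest to *MYBL2* were the mitotic kinase gene *PLK1* (0.88) and *FOXM1* (0.88), against a median of 1.57. The points of these profiles share the 6 libraries, and the distances describe them without a test.

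*E2F1* (chr20:33675477-33686385), an activator of S phase genes, had 2497 and 2971 normalized counts in siControl, against 452 and 992 with siADAR1 #1 and 1474 and 1579 with siADAR1 #2. The 3 groups did not overlap, with siADAR1 #1 lowest and siADAR1 #2 between it and the controls. *E2F1* fell 4.06-fold with siADAR1 #1 (log2FC -2.02 ± 0.32, adjusted p = 0.00771). With siADAR1 #2 the level was 55.8% of siControl, but the log2FC of -0.84 ± 0.32 had an adjusted p of 0.0885 and was not called. It was called when siADAR1 #2 was fitted with siControl alone (adjusted p = 0.00493), without either library of siADAR1 #1 (0.00533 without replicate 1 and 0.00551 without replicate 2), with voom on the recovered reads (0.0462) and with a block for the replicate number (0.0279). Within siADAR1 #1, replicate 1 was the lower library for *ADAR* and for every regulator except *E2F3* and *RB1*. The log2FC of *E2F1* with siADAR1 #1 was -1.45 without that replicate 1 and -2.59 without replicate 2. The cause of this difference between the replicates was not tested.

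*E2F2* (chr1:23506438-23531233), the least abundant activator, is the only regulator whose mean was higher with siADAR1 #2 than in siControl. Its normalized counts were 223 and 283 in siControl, against 70.1 and 116 with siADAR1 #1 and 362 and 341 with siADAR1 #2. The siADAR1 #1 libraries were below both controls and the siADAR1 #2 libraries above both. *E2F2* fell 2.74-fold with siADAR1 #1 (log2FC -1.45 ± 0.27, adjusted p = 0.0125), and this call was lost without replicate 1 of siADAR1 #1 (log2FC -1.10, adjusted p = 0.0517). With siADAR1 #2 its log2FC was 0.48 ± 0.27 (adjusted p = 0.228), which was not called.

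*E2F3* (chr6:20401879-20493714) was the most abundant activator per kb after silencing. It had 4884 and 4328 normalized counts in siControl, against 5581 and 4904 with siADAR1 #1 and 3061 and 3158 with siADAR1 #2. The siADAR1 #1 libraries were just above the controls, and those of siADAR1 #2 were below them. With siADAR1 #1 the log2FC of 0.19 ± 0.12 was not called (adjusted p = 0.335). *E2F3* fell to 67.5% of siControl with siADAR1 #2 (log2FC -0.56 ± 0.12, adjusted p = 0.0116), which is close to the limit of 0.5. That call was lost with quantile-normalized libraries (log2FC -0.42), with eBayes without a trend (adjusted p = 0.0543), without siControl replicate 1 (log2FC -0.48, adjusted p = 0.0778) and without siADAR1 #2 replicate 1 (adjusted p = 0.0740).

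Summed per kb, the activators *E2F1*, *E2F2* and *E2F3* had 1910 and 1990 normalized counts per kb in siControl, against 1256 and 1335 with siADAR1 #1 and 1204 and 1258 with siADAR1 #2. The sum was thus 66.4% of siControl with siADAR1 #1 and 63.1% with siADAR1 #2, while its makeup differed between the siRNAs. *E2F1* held 48.6% and 55.5% of the sum in siControl and 45.5% and 46.7% in siADAR1 #2, but 13.4% and 27.6% in siADAR1 #1. *E2F3* held 85.6% and 70.8% of the sum in siADAR1 #1, against 49.3% and 41.9% in siControl and 49.0% and 48.4% in siADAR1 #2. The share of *E2F2* was small in every library, from 1.02% to 5.50%.

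*E2F7* (chr12:77021248-77065569), a repressor of E2F target genes, had 9297 and 8354 normalized counts in siControl, against 6505 and 7380 with siADAR1 #1 and 2587 and 3258 with siADAR1 #2. The 3 groups did not overlap, with siADAR1 #2 far below the others. With siADAR1 #1 the log2FC was -0.35 ± 0.14 (adjusted p = 0.140) and was not called. *E2F7* fell 3.03-fold with siADAR1 #2 (log2FC -1.60 ± 0.14, adjusted p = 5.05e-04).

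*E2F8* (chr11:19224063-19241620), the other atypical repressor, behaved the other way round, with 1699 and 1724 normalized counts in siControl, against 425 and 721 with siADAR1 #1 and 1282 and 932 with siADAR1 #2. Again the groups did not overlap, but here siADAR1 #1 was lowest. *E2F8* fell 3.08-fold with siADAR1 #1 (log2FC -1.62 ± 0.26, adjusted p = 0.00800). With siADAR1 #2 the log2FC of -0.65 ± 0.26 was not called (adjusted p = 0.102), although it was when siADAR1 #2 was fitted with siControl alone (adjusted p = 0.0307) or without either library of siADAR1 #1 (0.0324 without replicate 1 and 0.0328 without replicate 2). Per kb, the repressors together went from 1889 and 1745 in siControl to 1137 and 1347 with siADAR1 #1 and 721 and 743 with siADAR1 #2, which is 68.4% and 40.3% of the siControl mean.

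*RB1* (chr13:48303744-48599436), the retinoblastoma tumor suppressor gene, had 7346 and 6220 normalized counts in siControl, against 6686 and 6359 with siADAR1 #1 and 2339 and 2620 with siADAR1 #2. The siADAR1 #1 libraries lay between the controls, whereas those of siADAR1 #2 were far below them. With siADAR1 #1 the log2FC was -0.05 ± 0.13 (adjusted p = 0.819, 95% confidence interval -0.35 to 0.24), and its sign turned with median-centred libraries (0.09), with quantile-normalized libraries (0.02) and without siControl replicate 1 (0.07). *RB1* fell 2.73-fold with siADAR1 #2 (log2FC -1.45 ± 0.13, adjusted p = 4.81e-04).

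*RBL1* (chr20:36996349-37095997), the gene of the pocket protein p107, had 4197 and 3927 normalized counts in siControl, against 2905 and 3100 with siADAR1 #1 and 2117 and 2202 with siADAR1 #2. The 3 groups did not overlap and descended in this order. With siADAR1 #1 the log2FC was -0.44 ± 0.11 with an adjusted p of 0.0350, which is below the p-value limit but not beyond a log2FC of 0.5, so it was not called. *RBL1* fell 1.88-fold with siADAR1 #2 (log2FC -0.91 ± 0.11, adjusted p = 0.00133). The pocket protein genes together, per kb, had 1846 and 1626 in siControl, against 1527 and 1509 with siADAR1 #1 and 719 and 777 with siADAR1 #2, or 87.4% and 43.1% of the siControl mean.

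*LIN54* (chr4:82909973-83012926), which recognizes the CHR element of late cell cycle promoters for the MuvB core, had 2155 and 2019 normalized counts in siControl, against 2250 and 2373 with siADAR1 #1 and 1821 and 1800 with siADAR1 #2. Relative to its siControl mean, it was the regulator with the narrowest range over the 6 libraries. Its log2FC was 0.15 ± 0.12 with siADAR1 #1 (adjusted p = 0.426) and -0.20 ± 0.12 with siADAR1 #2 (adjusted p = 0.232), and neither was called.

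**Figure D2:**
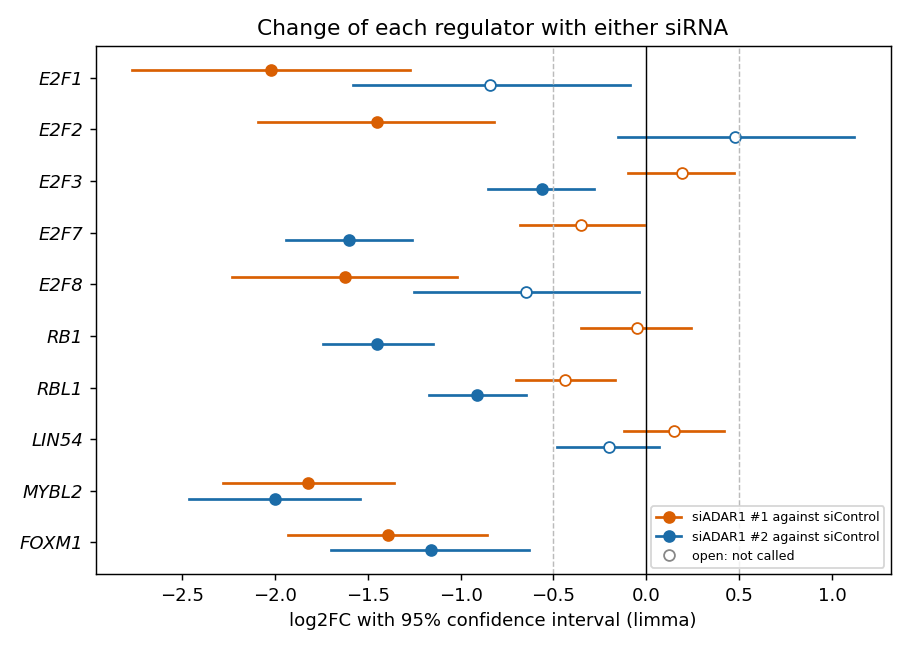
Log2FC of each regulator (horizontal axis) against siControl with siADAR1 #1 and siADAR1 #2, with 95% confidence intervals from limma, open circles where the gene was not called and dashed lines at a log2FC of 0.5 in either direction. The intervals for the siRNAs do not overlap for *E2F2*, *E2F3*, *E2F7* and *RB1*, and overlap widely for *MYBL2* and *FOXM1*.

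**Figure D3:**
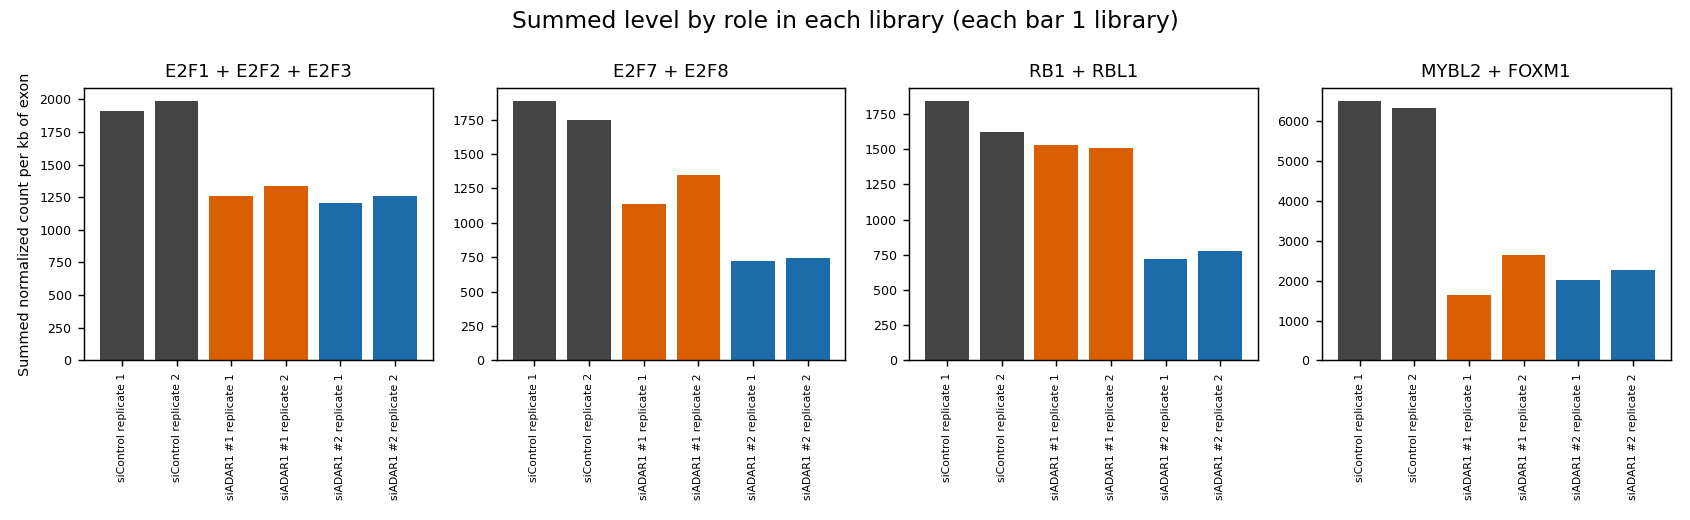
Summed normalized count per kb of exon (vertical axes, each starting at 0 with its own scale) for the activators, the atypical repressors, the pocket protein genes and *MYBL2* with *FOXM1*, with 1 bar per library. The activator sum is alike with both siRNAs, from 1204 to 1335, while the pocket protein sum is 1527 and 1509 with siADAR1 #1 and 719 and 777 with siADAR1 #2.

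The siRNAs were then compared with each other. Of the 10 regulators, 3 were called lower with siADAR1 #2 than with siADAR1 #1 (*E2F3*, *E2F7* and *RB1*), against 16.5% of all genes tested, and 3 were called higher (*E2F1*, *E2F2* and *E2F8*), against 17.3%. The difference was 1.93 on the log2 scale for *E2F2* (adjusted p = 0.00156), 1.18 for *E2F1* (adjusted p = 0.0228) and 0.98 for *E2F8* (adjusted p = 0.0214). It was -1.40 for *RB1* (adjusted p = 3.64e-04), -1.25 for *E2F7* (adjusted p = 7.31e-04) and -0.75 for *E2F3* (adjusted p = 0.00280). *RBL1* at -0.47 (adjusted p = 0.0138) and *LIN54* at -0.35 (adjusted p = 0.0483) were below the p-value limit but not beyond 0.5. The differences of *E2F1* and *E2F8* depended on the libraries fitted: they were not called in the fit of the 4 siADAR1 libraries alone (adjusted p of 0.0506 and 0.0503), without a trend (0.0743 and 0.0672), without siControl replicate 1 (0.0507 and 0.0502), without siControl replicate 2 (0.0512 and 0.0505) or without siADAR1 #2 replicate 1 (0.0765 and 0.125). *E2F8* was also lost without siADAR1 #1 replicate 1 (log2 difference 0.60, adjusted p = 0.0853), where *E2F1* had a difference of 0.62 (adjusted p = 0.0360), and *E2F1* was lost without siADAR1 #2 replicate 2 (adjusted p = 0.0863).

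The libraries of both siRNAs were also taken as 1 group against siControl. All 4 silenced libraries lay below both siControl libraries for 6 regulators (*E2F1*, *E2F7*, *E2F8*, *RBL1*, *MYBL2* and *FOXM1*), against 17.0% of all genes tested, and above both for 0, against 12.0%. In this fit limma called 0 regulators and 0 of all genes tested (0%). The silenced gene *ADAR* was itself not called in it (log2FC -2.53 ± 0.32, adjusted p = 0.0881). The smallest adjusted p of a regulator was that of *MYBL2* (log2FC -1.91 ± 0.21, adjusted p = 0.0881), and 5 regulators (*E2F1*, *E2F8*, *RBL1*, *MYBL2* and *FOXM1*) had an unadjusted p below 0.05, against 14.2% of all genes tested. When the average of the siRNA changes was tested in the fit with 3 groups, 7 regulators were called lower, against 11.5% of all genes tested, and *E2F2*, *E2F3* and *LIN54* were not called.

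With siADAR1 #1, calls also depended on the controls. Without siControl replicate 1, *MYBL2* was the only regulator called (log2FC -1.76, adjusted p = 0.0496), and *E2F1* (adjusted p = 0.0647), *E2F2* (0.0676), *E2F8* (0.0715) and *FOXM1* (0.0715) were lost. Without siControl replicate 2, again only *MYBL2* was called (log2FC -1.88, adjusted p = 0.0332), with adjusted p-values of 0.0650, 0.0878, 0.0616 and 0.0657 for *E2F1*, *E2F2*, *E2F8* and *FOXM1*. The log2FC of *E2F1* stayed between -2.59 and -1.45, that of *E2F8* between -2.00 and -1.24 and that of *FOXM1* between -1.77 and -1.02 over the alternatives run.

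Regulators of this family are known to bind each other's promoters, so the sequence upstream of the called regulators was examined for words that E2F complexes and LIN54 recognize. Windows from 250 bases before to 50 bases after the transcription start were taken from RefSeq (GRCh38.p14), where 8 of the 10 regulators had an entry, some with 2, while *E2F8* and *FOXM1* were not matched. The *RB1* and *LIN54* entries lie within these genes, away from their annotated starts, and were not read as their promoters. The second *E2F3* entry (chr6:20403364-20403663) also lies within its gene, is not shown and holds none of the words below. The start used for *MYBL2* lies inside the gene as annotated (from 43667019), so most of its bases shown belong to the annotated gene. On either strand, 4 E2F words (TTTCGCGC, TTTGGCGC, TTTCCCGC and TTTGCCGC) and 2 CHR words (TTTGAA and TTCGAA) were searched, none of which contains another. Shown are the 120 bases from 100 before to 20 after the start for the activators, for *RBL1* and for *MYBL2*, 5′ to 3′ on the strand of the gene, with E2F and CHR words in capitals.
E2F1, chr20:33686366-33686485, reverse strand: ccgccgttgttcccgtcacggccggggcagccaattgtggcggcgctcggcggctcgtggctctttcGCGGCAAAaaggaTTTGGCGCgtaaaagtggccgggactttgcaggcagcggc
E2F2, chr1:23531214-23531333, reverse strand: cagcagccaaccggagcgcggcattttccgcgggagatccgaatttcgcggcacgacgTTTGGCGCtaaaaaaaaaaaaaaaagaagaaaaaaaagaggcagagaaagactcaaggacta
E2F3, chr6:20401779-20401898, forward strand: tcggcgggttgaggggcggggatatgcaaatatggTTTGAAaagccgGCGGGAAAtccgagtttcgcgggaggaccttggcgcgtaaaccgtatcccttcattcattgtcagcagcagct
RBL1, chr20:37095978-37096097, reverse strand: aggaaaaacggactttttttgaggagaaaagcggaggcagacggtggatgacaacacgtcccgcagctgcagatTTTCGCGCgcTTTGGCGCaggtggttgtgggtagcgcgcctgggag
MYBL2, chr20:43667014-43667133, forward strand: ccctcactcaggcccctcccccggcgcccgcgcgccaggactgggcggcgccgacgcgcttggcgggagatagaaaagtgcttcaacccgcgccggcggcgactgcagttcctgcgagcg

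The E2F words were found in 4 regulators, *E2F1*, *E2F2*, *E2F3* and *RBL1*, and in 3.31% of all 35116 promoter windows. In *E2F1* the words stand from -33 to -26 (on the opposite strand) and from -20 to -13, and in *RBL1* they stand side by side from -26 to -19 and from -16 to -9, counted from the start. *E2F2* has TTTGGCGC from -42 to -35, the same word as in *E2F1* and *RBL1*, and *E2F3* has a word on the opposite strand from -53 to -46 behind a CHR word from -65 to -60. The genes with these words thus include some called lower with siADAR1 #1 (*E2F1* and *E2F2*) and some called lower with siADAR1 #2 (*E2F3* and *RBL1*). The window of *MYBL2*, set on a start inside the annotated gene, and that of *E2F7* hold none of these words. This says nothing about whether an E2F binds there. A CHR word was found in *E2F3*, against 16.4% of all windows. A match is a description of the letters and not a measured binding site.

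The genes that these regulators are known to control were then examined, in lists written from general knowledge. These lists were chosen with earlier results of these data known, so their counts are a description and not an independent test. Of 30 G1/S genes known as E2F targets, 21 were called lower with siADAR1 #1 and 28 with siADAR1 #2. With either siRNA, 0 were called higher. Of all genes tested, 11.0% and 16.0% were called lower and 6.39% and 11.6% higher. The median log2FC of the list was -0.74 with siADAR1 #1 and -1.13 with siADAR1 #2, against -0.03 and -0.02 over all genes tested. Between the siRNAs, 12 of the 30 were called lower with siADAR1 #2, against 16.5% of all genes tested, and 0 higher, against 17.3%. The 3 with the highest siControl level per kb were the sliding clamp gene *PCNA*, the ribonucleotide reductase gene *RRM1* and the helicase subunit gene *MCM3*. *PCNA* fell with siADAR1 #1 (log2FC -0.89 ± 0.13, adjusted p = 0.00573) and with siADAR1 #2 (log2FC -0.88 ± 0.13, adjusted p = 0.00225). *RRM1* had a log2FC of -0.44 ± 0.11 with siADAR1 #1, not beyond 0.5, and fell with siADAR1 #2 (log2FC -0.80 ± 0.11, adjusted p = 0.00194), and *MCM3* fell with siADAR1 #1 (log2FC -0.79 ± 0.17, adjusted p = 0.0196) and more with siADAR1 #2 (log2FC -1.52 ± 0.17, adjusted p = 9.51e-04, and -0.73 between the siRNAs, adjusted p = 0.0127). Promoter windows of this list held an E2F word in 43.2% and a CHR word in 8.11% of 37, against 3.31% and 16.4% of all windows. The list holds known targets, so these shares are a description and not a test. Its windows were not screened for entries away from the annotated starts.

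Of 34 G2/M genes known as targets of B-MYB or FOXM1, 13 were called lower with siADAR1 #1 and 33 with siADAR1 #2. With either siRNA, 0 were called higher. The shares over all genes tested were 11.0% and 16.0% lower and 6.39% and 11.6% higher. The median log2FC of the list was -0.40 with siADAR1 #1 and -1.06 with siADAR1 #2. Between the siRNAs, 22 of the 34 were called lower with siADAR1 #2, against 16.5% of all genes tested, and 0 higher, against 17.3%. The median difference was -0.55, against 0.01 over all genes tested. Among the 3 with the highest siControl level per kb, *CCNB1*, the gene of the mitotic cyclin B1, had 15061 and 14358 normalized counts in siControl, 10762 and 12149 in siADAR1 #1 (log2FC -0.36 ± 0.14, adjusted p = 0.121) and 4233 and 5459 in siADAR1 #2 (log2FC -1.61 ± 0.14, adjusted p = 4.82e-04). Its difference between the siRNAs was -1.25 ± 0.14 (adjusted p = 7.01e-04). *TPX2*, a spindle assembly factor gene, fell with siADAR1 #1 (log2FC -0.67 ± 0.13, adjusted p = 0.0127) and with siADAR1 #2 (log2FC -0.88 ± 0.13, adjusted p = 0.00220), and *CKS2*, the gene of a cyclin-dependent kinase subunit, had -0.06 ± 0.14 (adjusted p = 0.810) and -0.56 ± 0.14 (adjusted p = 0.0198). Windows of this list held a CHR word in 62.2% and an E2F word in 8.11% of 37, against 16.4% and 3.31% of all windows, with the same limits as for the G1/S list.

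**Figure D4:**
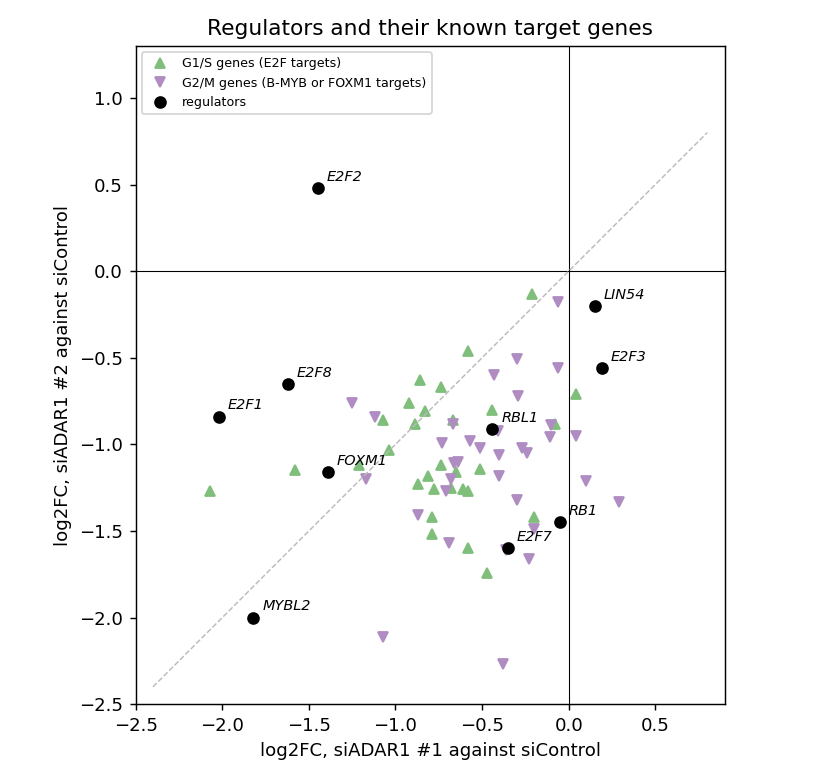
Log2FC with siADAR1 #1 (horizontal axis) and siADAR1 #2 (vertical axis), both against the same siControl libraries, for the 10 regulators (black circles, named), 30 G1/S genes known as E2F targets (green triangles) and 34 G2/M genes known as B-MYB or FOXM1 targets (purple triangles), with a dashed line where the values are equal. *E2F1*, *E2F2* and *E2F8* lie above the line, *MYBL2* and *FOXM1* close to it, and *RB1*, *E2F7* and most G2/M genes below it.

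Partners with which these regulators form complexes, and relatives of them, were examined in the same way. Of 12 genes for other members of the E2F, DP, pocket protein, MuvB and MYB groups, 0 were called with siADAR1 #1 (median log2FC 0.22). Of all genes tested, 11.0% were called lower and 6.39% higher with that siRNA. With siADAR1 #2, 5 were called lower, against 16.0%, and 0 higher, against 11.6% (median of the 12 genes -0.40). Those 5, named after their values were seen, were *E2F4*, *E2F5*, *TFDP2*, *LIN9* and *MYBL1*, with *LIN9*, a MuvB subunit gene, at -1.23 ± 0.17 (adjusted p = 0.00205) and *TFDP2*, a DP partner gene, at -1.20 ± 0.17 (adjusted p = 0.00206). Among the 3 most abundant, the DP1 gene *TFDP1* had -0.25 ± 0.10 with siADAR1 #1 and -0.45 ± 0.10 with siADAR1 #2, the histone-binding MuvB subunit gene *RBBP4* had 0.31 ± 0.10 and 0.35 ± 0.10, and neither was called. *E2F4*, the E2F of the DREAM complex, had -0.37 ± 0.18 (adjusted p = 0.199) with siADAR1 #1 and fell with siADAR1 #2 (log2FC -0.62 ± 0.18, adjusted p = 0.0339).

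Upstream of RB lie the cyclin D and cyclin E kinases and their inhibitors, and the phosphatase gene *CDC25A* was listed with them. Of 14 such genes, 11 passed the filter. With siADAR1 #1, 2 were called lower, against 11.0% of all genes tested, and 3 higher, against 6.39% (median log2FC of the list -0.04). With siADAR1 #2, 4 were called lower, against 16.0%, and 1 higher, against 11.6% (median of the list -0.18). *CDKN2A* had no read in any library and *CDKN2B* at most 1 read, so transcripts of these inhibitors of the cyclin D kinases, named after their values were seen, were not detectable at this depth. Another such inhibitor gene, *CDKN2C*, had 531 to 1978 normalized counts. It fell with siADAR1 #1 (limma log2FC -1.62 ± 0.16, adjusted p = 0.00302) and was not called with siADAR1 #2 (-0.18 ± 0.16). The genes called higher were *CCNE1* (0.81), *CDKN1B* (1.08) and *CCND3* (0.51) with siADAR1 #1 and *CCND3* (0.77) with siADAR1 #2. These genes were also named after their values were seen. The cyclin D1 gene *CCND1*, the most abundant of the list per kb, had 43376 and 40136 normalized counts in siControl, against 40949 and 36429 with siADAR1 #1 and 17211 and 18217 with siADAR1 #2. It fell with siADAR1 #2 (log2FC -1.24 ± 0.11, adjusted p = 4.65e-04) and was not called with siADAR1 #1 (log2FC -0.11 ± 0.11, adjusted p = 0.518), and the difference between the siRNAs was -1.13 (adjusted p = 4.18e-04). *CDK6*, a partner kinase of cyclin D, fell with both (log2FC -1.04 ± 0.19, adjusted p = 0.0113, and -1.65 ± 0.19, adjusted p = 0.00101), whereas *CDK4* had -0.23 ± 0.12 and -0.32 ± 0.12 and was not called.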

How the data were processed

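Poly(A)+ RNA of Cal62 cells transfected with siControl, siADAR1 #1 or siADAR1 #2 was sequenced with 75-bp paired-end reads. The authors trimmed adapters with Atropos, examined reads with FastQC, counted reads on known genes with featureCounts and, in parallel, Salmon in the bcbio-nextgen pipeline (GRCh38), and normalized with DESeq2. The deposited values are log2 values, which the authors made from normalized counts by a variance-stabilizing transformation. Salmon estimates are the input that the methods prefer for this step, and which counts were used is not stated for this table. Undoing the transformation gave whole reads for 100% of values (tolerance 0.1). Labels name 1 sample per transfection, with 2 columns each. Following the study's methods, which give 2 biological replicates, the columns were treated as separate libraries, and 0 columns were left unused. If they are technical, p-values measure technical spread only. Whether counting used strand is not given in the sources used here, so reads from overlapping antisense genes cannot be told apart.

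The log2 values were compared with limma 3.58.1 (lmFit, eBayes with trend, two-sided) in R 4.3.3, over 20247 genes with a mean of at least 10 normalized counts, with Benjamini-Hochberg adjustment over all of them. Residual degrees of freedom were 3 with each siRNA as its own group and 4 with the siRNAs pooled. The calls use an adjusted p below 0.05 and a log2FC beyond 0.5. Count models were not used on these log2 values. Levels per kb divide by the union of exons in GENCODE release 44. The limma fits and the undoing of the transformation were tested on simulated counts, where both siRNAs were given the same changes. A true difference between the siRNAs was not simulated, and the other steps were not tested in this way. Beside the 10 regulators and *ADAR*, the genes named are the 3 of each list with the highest siControl level per kb, the genes nearest to regulators called with both siRNAs, a list of thyroid and keratin markers, and those said to be named after their values were seen. The regulators and lists were chosen with earlier results of these data known. The result for 1 marker gene is not reported here.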

Additional observations from a re-analysis of the deposited data

Results flagged for a closer look

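The response of 6 of the 10 regulators differed between the siRNAs by a test of the difference itself (limma, siADAR1 #2 minus siADAR1 #1 on the log2 scale). Of all genes tested, 16.5% were called lower and 17.3% higher in the same comparison. The difference was 1.18 for *E2F1*, 1.93 for *E2F2* and 0.98 for *E2F8*, which were lower with siADAR1 #1. It was -0.75 for *E2F3*, -1.25 for *E2F7* and -1.40 for *RB1*, which were lower with siADAR1 #2. The calls of *E2F1* and *E2F8* were each lost in 6 alternatives, with adjusted p-values of 0.0506 and 0.0503 in the fit of the 4 siADAR1 libraries alone. *ADAR* itself differed by 0.35 (adjusted p = 0.406, 95% confidence interval -0.36 to 1.06). With 2 libraries per group, no group was large enough to be examined for a library far from the others.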

How the results depend on the processing

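In all, 17 alternatives were tried, each for the comparisons it applies to. Of 64 recomputed counts of regulators called, 61 stayed within 1.5 times the reported count. The count for the siADAR1 libraries as 1 group rose from 0 to 7 when the average of the siRNA changes was tested, and that for siADAR1 #1 was between 1 and 5 when a library was left out. Of 640 recomputed log2FC values, 582 kept their direction and side of the threshold, 29 lost the call, 19 gained it and 10 changed sign. With median-centred and with quantile-normalized libraries, *RB1* with siADAR1 #1 had 0.09 and 0.02, and *LIN54* with the siADAR1 libraries as 1 group had 0.06 and 0.09. With a library left out, *RB1* with siADAR1 #1 ranged from -0.17 to 0.07, *LIN54* with the siADAR1 libraries as 1 group from -0.10 to 0.03, and, between the siRNAs, *MYBL2* from -0.51 to 0.14 and *FOXM1* from -0.14 to 0.61. The cause was not tested. Median centring moved the median log2FC of all genes tested with siADAR1 #1 from -0.03 to 0.11 and the split of its calls from 2225 lower and 1293 higher to 1723 and 1938, while the same 5 regulators were called.

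The number of genes called depended on the spread model and the libraries: with siADAR1 #1 it was 3518, but 1478 without a trend, 1291 without siADAR1 #1 replicate 1, and 312 and 1165 without siControl replicates 1 and 2. For siADAR1 #2 the number was 5573, but 3152 without siControl replicate 1 and 3105 without siADAR1 #2 replicate 1. The replicate numbers stand in the column names only. Replicate 2 minus replicate 1 correlated across 20247 genes, which are not independent, with an r of 0.111 for siControl with siADAR1 #1, 0.130 for siControl with siADAR1 #2 and 0.150 for siADAR1 #1 with siADAR1 #2, and no label ties the numbers to a shared day or culture, so with 2 numbers the fits without the block were kept. Under a replicate block, the genes called were 4094 with siADAR1 #1, 6065 with siADAR1 #2, 7256 between the siRNAs and 0 for the siADAR1 libraries as 1 group, and the only regulator whose call changed was *E2F1* with siADAR1 #2 (adjusted p = 0.0279). Each library left out of a group of 2 leaves a lone library that is assumed to vary like the others. Each regulator had at least 75 reads in a library, and the 2 libraries per group limit the precision as well as the depth.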
